A study of Mus musculus with 5 samples.

Results

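The barcodes described here held the transcripts of both luminal lineages of the mouse mammary gland at once, the hormone-sensing luminal cells (L-Hor) and the alveolar luminal cells (L-Alv). They were chosen by measured values. Per 10000 UMIs (unique transcript counts), Prlr and Cited1 together had to reach 10, Csn3 and Spp1 together had to reach 10, Krt14 and Krt17 had to stay below 8, and Col1a1, Col1a2, Col3a1 and Dcn had to stay below 50. Barcodes with 2 or more UMIs of Mki67, Top2a, Cdk1, Ube2c and Ccnb2, or with more than 10% mitochondrial UMIs, were left out. In all, 663 of 14344 barcodes met the rule and are called members below.

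Single-cell transcriptomes of the mammary gland were measured in ovariectomized BALB/cj mice, with 1 library for each of 5 groups. All mice were 30 weeks old and had lost their ovaries 20 weeks before a treatment of 1 week. OVX received the DMSO vehicle by injection and control food with DMSO. OVX_E2 received 1 ug of estradiol (E2) per animal each day, and OVX_E2_P4 received the same E2 with 0.1 mg of progesterone (P4). OVX_E2_PBDE and OVX_E2_P4_PBDE received those hormones and food with the flame retardants BDE-47, BDE-100 and BDE-153 at 7.1, 0.4 and 0.9 mg per kg. About 4000 cells were loaded per library after tissue dissociation and removal of dead cells, without a sort. The paper gives the size of each treatment group. The number of mice behind each library was not given in the sample labels or the paper's text. The comparisons below are therefore between libraries and have no replicate check. Any difference between groups cannot be told apart from a difference between preparations.

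L-Hor cells carry the receptors for estrogen, progesterone and prolactin and signal to their neighbours through paracrine factors such as amphiregulin. L-Alv cells, which depend on the transcription factor Elf5, are the lineage that gives rise to milk-secreting cells. The rule used Prlr, the prolactin receptor, and Cited1, a transcriptional co-regulator, for the first lineage. It used Csn3, kappa-casein, and Spp1, osteopontin, for the second. The 2 groups of barcodes most like the members served as references within each library: L-Hor-only barcodes, which passed the same limits but held fewer than 10 UMIs per 10000 of Csn3 and Spp1, and L-Alv-only barcodes, which held fewer than 10 of Prlr and Cited1. There were 3133 L-Hor-only and 1173 L-Alv-only barcodes.

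Total depth was 20293934 UMIs over 3109 barcodes in OVX and 29590862 over 2233 in OVX_E2. It was 42012988 over 3536 in OVX_E2_PBDE, 32648416 over 3107 in OVX_E2_P4 and 19982067 over 2359 in OVX_E2_P4_PBDE. The lowest UMI count of a barcode ranged from 3374 in OVX to 5395 in OVX_E2, so the barcodes deposited began at a different depth in each library. Any pair of libraries shared between 3 and 15 barcode sequences, and 1 sequence was a member in both OVX and OVX_E2_P4_PBDE. No doublet caller was run and no barcode was removed as a doublet. Droplets with 2 cells and single cells with both programs were not told apart. Intervals below are exact 95% intervals (Poisson for sums of UMIs, binomial for shares) and cover counting error only.

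The members made up a small share of every library and a large share of the luminal barcodes of OVX. OVX had 88 members, 2.83% of its barcodes (interval 2.28 to 3.48). OVX_E2 had 110, which is 4.93% (4.07 to 5.91), and OVX_E2_PBDE had 162, which is 4.58% (3.92 to 5.32). OVX_E2_P4 had 154, which is 4.96% (4.22 to 5.78), and OVX_E2_P4_PBDE had 149, which is 6.32% (5.37 to 7.37). Set against all barcodes, the share was lowest in OVX, and its interval lay below those of the other libraries. This order did not hold with a limit of 20 for each program, where OVX had 0.450%, OVX_E2 0.224% and OVX_E2_P4 0.386%. Fibroblast-program barcodes, with at least 50 UMIs per 10000 of the 4 collagen and decorin genes and neither luminal program, were 84.0% of OVX and 30.7% to 55.5% of the others.

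Set against luminal barcodes only, the order turned. Members were 34.6% of the 254 luminal barcodes of OVX (28.8 to 40.8). They were 12.3% of 891 in OVX_E2 (10.3 to 14.7), 14.3% of 1130 in OVX_E2_PBDE (12.3 to 16.5), 9.78% of 1574 in OVX_E2_P4 (8.36 to 11.4) and 13.3% of 1120 in OVX_E2_P4_PBDE (11.4 to 15.4). In OVX the members outnumbered the 45 L-Alv-only barcodes and came near the 121 L-Hor-only barcodes. In OVX_E2_P4, by contrast, 154 members stood beside 822 L-Hor-only and 598 L-Alv-only barcodes. The members also carried a larger part of the UMIs of luminal genes in OVX. They held 37.3% of all UMIs of the alveolar genes described below in OVX, against 13.2% in OVX_E2_P4 and 19.3% to 23.1% in the other libraries with E2. Of the UMIs of the hormone-sensing genes they held 35.8% in OVX and 10.7% to 13.8% in the libraries with E2.

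Just inside the limit, with the lower program at 10 to 12 UMIs per 10000, there were 24 barcodes in OVX, and 49 (OVX_E2), 56 (OVX_E2_PBDE), 52 (OVX_E2_P4) and 39 (OVX_E2_P4_PBDE) in the others. Just outside it, at 8 to 10, there were 11, 33, 58, 51 and 58 in the same order. The median UMIs of these neighbours were 22388 inside and 28692 outside in OVX. The limit thus crosses a continuous range of values and not a gap.

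Depth set the members apart from both references. The median was 23971.5 UMIs per barcode in the members of OVX, against 9276 in L-Hor-only and 10032 in L-Alv-only barcodes. It was 25482.5 against 10898 and 15496 in OVX_E2, and 25625 against 11694 and 15519 in OVX_E2_PBDE. With P4 it was 18645 against 9333 and 10906.5 in OVX_E2_P4, and 14051 against 6451 and 10137 in OVX_E2_P4_PBDE. In each of the 5 libraries the members thus had 2.00 to 2.58 times the median of the L-Hor-only barcodes and 1.39 to 2.39 times that of the L-Alv-only barcodes.

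The median of the members was then divided by the sum of both reference medians, a value of 1 being the depth of 1 median barcode of each kind. OVX stood at 1.24 (interval of the members' median 1.13 to 1.40). OVX_E2 stood at 0.965 (0.902 to 1.04), OVX_E2_PBDE at 0.942 (0.867 to 1.04) and OVX_E2_P4 at 0.921 (0.864 to 1.01). OVX_E2_P4_PBDE stood at 0.847 (0.754 to 0.937). The interval for OVX lay above 1 and above the intervals of the libraries with E2, while that for OVX_E2_P4_PBDE lay below 1. The references of OVX were also few, and the interval of its L-Alv-only median ran from 5603 to 16614 UMIs. With references held below 3 UMIs per 10000 of the other program, the ratio of OVX was 2.01 and the others lay between 1.02 and 1.21. With all classes chosen after thinning every barcode to 3000 UMIs, the ratio of OVX was 1.07. With a limit of 20 for each program, which 14 barcodes of OVX met, it was 0.865, and the libraries with E2 lay between 0.618 and 0.957.

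**Figure D1:**
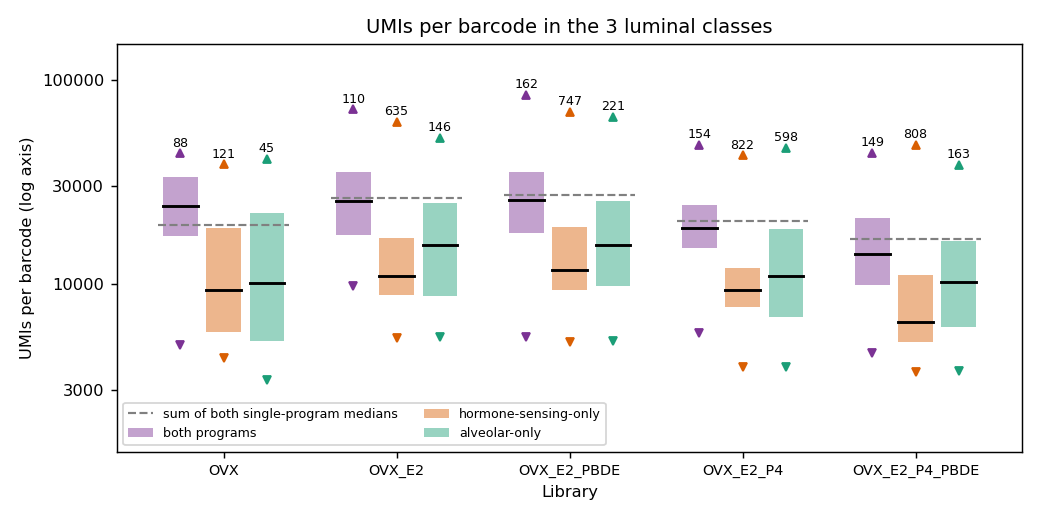
UMIs per barcode on a log axis for members and both single-program references in each library. Boxes span the 25th to 75th percentiles, black lines are medians, triangles are the lowest and highest barcode, numbers count barcodes, and dashed lines mark the sum of both reference medians. The median of OVX lies above its dashed line (ratio 1.24), and those of the other 4 libraries lie below theirs (0.847 to 0.965).

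The members also held more detected genes. Their median was 4641.5 genes per barcode in OVX, against 2750 in L-Hor-only and 2500 in L-Alv-only barcodes. In OVX_E2 and OVX_E2_PBDE the members' medians were 4427.5 and 4209, and in OVX_E2_P4 and OVX_E2_P4_PBDE they were 3645 and 3115. At equal depth of 3000 UMIs per barcode, which every barcode reached, this difference was gone. The thinned medians of the members were 1227.5, 1149.5, 1086, 1111.5 and 1116 genes in the same order, and in each library but OVX_E2_P4_PBDE they lay between those of the references. In OVX_E2_P4_PBDE, 1116 stood above 1093 in L-Hor-only and 1052 in L-Alv-only barcodes. Mitochondrial UMIs were a median of 2.68% to 3.47% of the members' UMIs.

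Not every member was deep. In OVX, 6 of 88 members lay below the higher of both reference medians, as did 16 of 110 in OVX_E2, 23 of 162 in OVX_E2_PBDE, 11 of 154 in OVX_E2_P4 and 41 of 149 in OVX_E2_P4_PBDE. In OVX_E2_P4_PBDE these 41 shallow members had a median of 8014 UMIs. They held the 12 hormone-sensing genes named below at 2705 UMIs per 1000000 and the 16 alveolar genes at 6909, against 2342 and 7158 in the 108 deeper members. Both programs were thus present in the shallow members of that library as well as in its deep ones.

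Because both depth and library moved together, the share of members among luminal barcodes was set out by depth. In every library it was higher at 16000 UMIs and over than below 9000. In OVX it went from 1.79% below 6000 UMIs to 62.3% at 24000 and over. At 24000 and over, 43 of 69 luminal barcodes of OVX were members (interval 49.8% to 73.7%). In the same range the share was 34.6% in OVX_E2 (27.8 to 41.9), 33.1% in OVX_E2_PBDE (27.5 to 39.1), 28.3% in OVX_E2_P4 (21.1 to 36.3) and 24.5% in OVX_E2_P4_PBDE (16.7 to 33.8). The interval of OVX lay above the other 4 in that range. From 16000 to 24000 UMIs, OVX had 47.2% (33.3 to 61.4) and the others 18.8% to 28.4%. Here its interval overlapped that of OVX_E2_P4_PBDE (20.5 to 37.6).

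**Figure D2:**
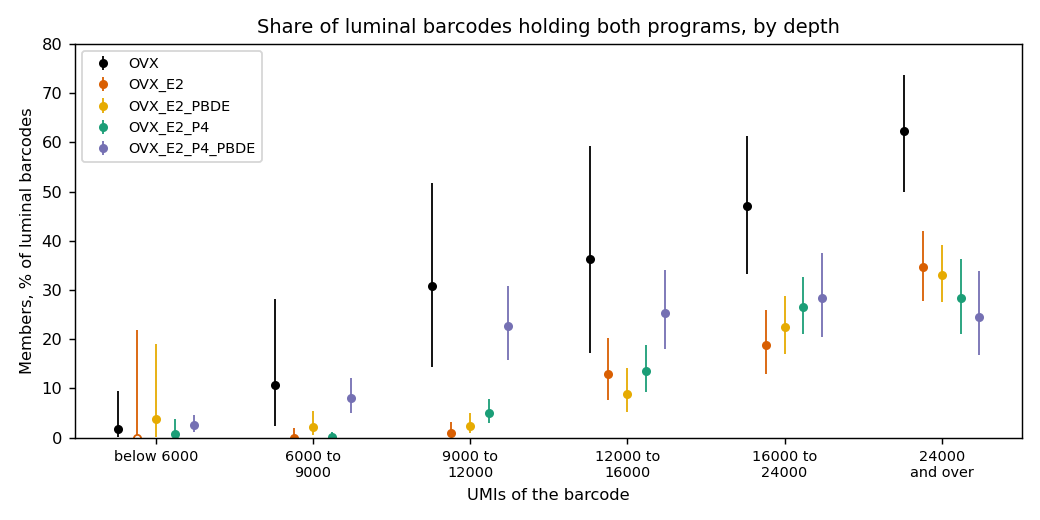
Members as a percentage of luminal barcodes (members and both references) by the UMIs of the barcode, with exact binomial 95% intervals. The open point has fewer than 20 barcodes. OVX reaches 62.3% at 24000 UMIs and over, where the 4 libraries with estradiol lie between 24.5% and 34.6%.

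The number of members was also set against the numbers of both single-program classes, as the number of members times all barcodes, divided by the product of the class numbers. It was 50.2 in OVX (40.3 to 61.9), from 88 members, 121 L-Hor-only and 45 L-Alv-only barcodes. It was 2.65 in OVX_E2 (2.18 to 3.19), 3.47 in OVX_E2_PBDE (2.96 to 4.05), 0.973 in OVX_E2_P4 (0.826 to 1.14) and 2.67 in OVX_E2_P4_PBDE (2.26 to 3.13). This ratio rises with the number of barcodes of other kinds, and fibroblast-program barcodes were most of OVX. With luminal barcodes in place of all barcodes, a setting chosen after the data were seen, it was 4.11 in OVX (3.29 to 5.06), 1.06 in OVX_E2 (0.869 to 1.27), 1.11 in OVX_E2_PBDE (0.945 to 1.29), 0.493 in OVX_E2_P4 (0.418 to 0.577) and 1.27 in OVX_E2_P4_PBDE (1.07 to 1.49). OVX thus stood above the other libraries with either denominator, and by less with luminal barcodes. Pairs with the fibroblast program gave lower values. Barcodes with the hormone-sensing and fibroblast programs stood at 0.118 in OVX, from 12 barcodes (0.0610 to 0.206), and at 0.0797 to 0.114 in the libraries with E2. The alveolar and fibroblast pair gave 0.0794 in OVX and 0.0486 to 0.0964 in the others. Pairs with the basal program (Krt14 and Krt17 at 8 or more) rested on 0 to 6 barcodes. They reached 0.918 in OVX (hormone-sensing and basal, 0.111 to 3.31) and 0.918 in OVX_E2 (alveolar and basal, 0.189 to 2.68), near the 0.973 of the luminal pair in OVX_E2_P4. The 0 barcodes of the alveolar and basal pair in OVX allow a ratio of up to 3.70. The class numbers leave out the barcodes with both programs, so 1 is not the value for unrelated programs, and the limit of 50 for the fibroblast program is on another scale than that of the luminal genes. The ratios are therefore descriptions, and were not tested.

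**Figure D3:**
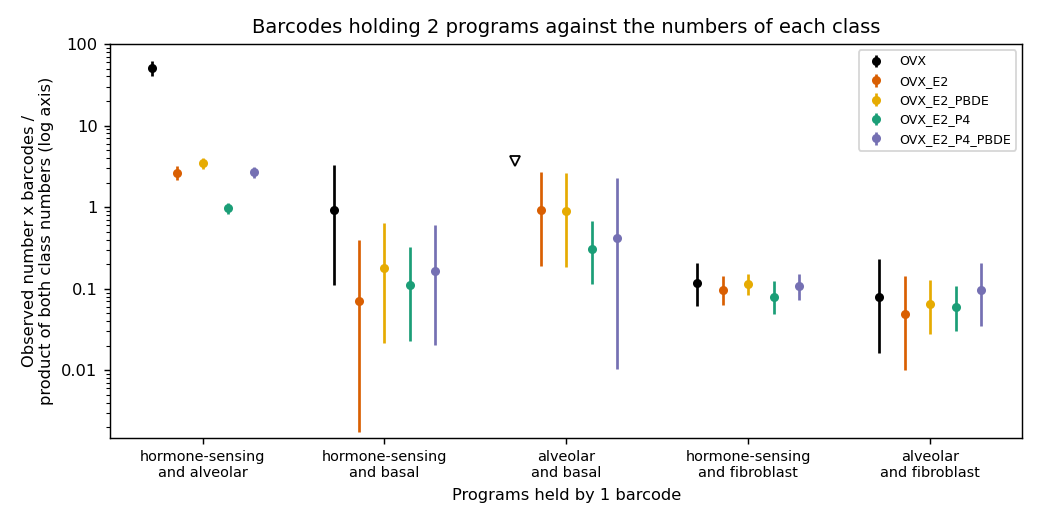
Barcodes holding a pair of programs, times all barcodes, divided by the product of both single-program numbers, on a log axis with Poisson 95% intervals. The open triangle marks the limit that 0 barcodes allow. The luminal pair stands at 50.2 in OVX and at 0.973 to 3.47 in the other libraries, with all barcodes, mostly fibroblast-program ones in OVX, in the ratio.

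Both programs were present in genes that the rule had not used. A list of 12 hormone-sensing genes (among them Esr1, Pgr, Foxa1, Areg and Ly6d) summed to 2026 CPM (UMIs per 1000000 UMIs of the class) in the members of OVX, against 3115 in L-Hor-only and 922 in L-Alv-only barcodes. In the members of OVX_E2, OVX_E2_PBDE, OVX_E2_P4 and OVX_E2_P4_PBDE it summed to 2619, 2500, 2448 and 2389. A list of 16 alveolar genes (among them Elf5, Kit, Trf, Lcn2, Plet1 and Lalba) summed to 7876 in the members of OVX, against 4114 in L-Hor-only and 14652 in L-Alv-only barcodes. The members of the libraries with E2 held 7344, 6607, 8201 and 7126. In all 5 libraries the members thus lay between both references on both lists, so that both programs stood on genes outside the rule. Fibroblast-program barcodes, a rough gauge of free RNA, held the hormone-sensing list at 94.0 to 276 CPM and the alveolar list at 514 to 806. The gauge does not serve every gene. In OVX, Aldh1a3 of the alveolar list stood at 120 CPM in these barcodes and at 48.9 in the members.

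**Figure D4:**
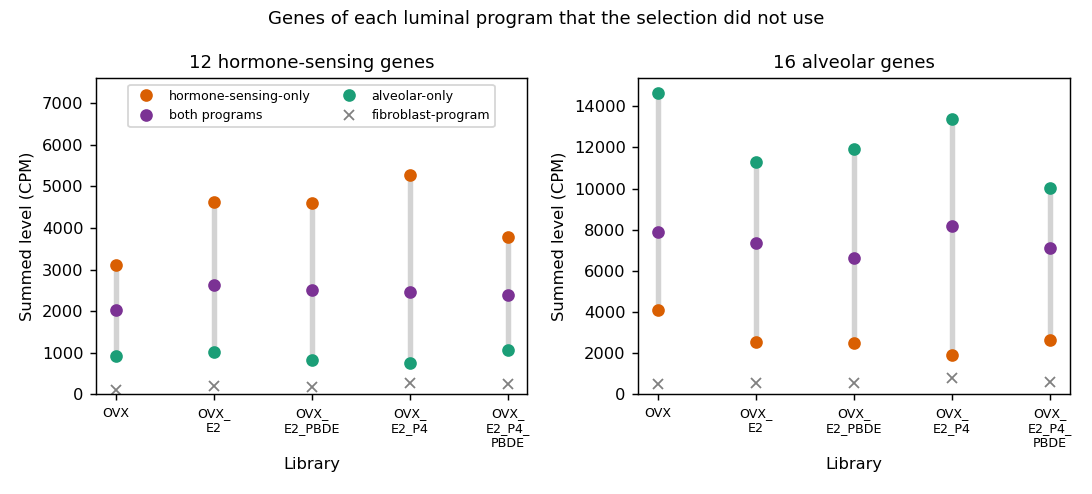
Summed level, in CPM, of 12 hormone-sensing and 16 alveolar genes in members, both references and fibroblast-program barcodes of each library. The members lie between both references in every library, at 2026 to 2619 for the hormone-sensing genes and 6607 to 8201 for the alveolar genes.

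Single genes gave the same picture. Foxa1, the pioneer factor of the estrogen receptor, stood at 71.3 CPM in the members of OVX (60.6 to 83.4) and at 85.1, 107, 104 and 107 in those of OVX_E2, OVX_E2_PBDE, OVX_E2_P4 and OVX_E2_P4_PBDE. After thinning, 15.9% of the members of OVX had a Foxa1 UMI, against 24.0% of L-Hor-only, 2.22% of L-Alv-only and 0.230% of fibroblast-program barcodes (76.1%, 52.1%, 26.7% and 0.459% before thinning). Elf5, the transcription factor of the alveolar lineage, stood at 56.2 CPM in the members of OVX (46.7 to 67.1) and at 65.0 to 86.0 in the others. After thinning, 17.0% of the members of OVX had an Elf5 UMI, against 5.79% of L-Hor-only, 28.9% of L-Alv-only and 0.306% of fibroblast-program barcodes (65.9%, 23.1%, 68.9% and 0.421% before thinning). The median depths behind these shares were 23971.5, 9276, 10032 and 5212 UMIs. The members thus held regulators of both lineages well above the fibroblast background. Pgr, the progesterone receptor, and Kit, the stem cell factor receptor, followed, at 73.6 to 101 and 25.6 to 37.1 CPM in the members. Esr1, the estrogen receptor, did not separate as clearly from the fibroblast-program barcodes. Those of OVX held Esr1 at 47.8 CPM, but Pgr at 2.77 and Foxa1 at 0.852. They are therefore not a plain gauge of free RNA for Esr1, and the source of their Esr1 was not tested. In OVX, 13.0% of thinned fibroblast-program barcodes had an Esr1 UMI, beside 23.9% of the members. In each library with E2 the thinned members lay below the fibroblast-program barcodes, at 8.02% to 11.7% against 10.8% to 14.7%. Before thinning these shares were 42.3% to 70.0% against 19.7% to 26.9%.

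Of the milk protein genes on the alveolar list, Lalba, alpha-lactalbumin, stood at 47.1 CPM in the members of OVX and at 54.5, 55.1, 113 and 134 in those of the libraries with E2, in the order above. In each library it lay between L-Hor-only and L-Alv-only barcodes. Csn2, beta-casein, was at 0 in the members of all 5 libraries. Csn1s1, another casein, rested on 12 UMIs in the members of OVX_E2_P4 (3.81 CPM, in 1.30% of members) and on 1 UMI in those of OVX_E2_P4_PBDE. It was at 0 in the members of the other libraries, but at 2.81 CPM in the L-Alv-only barcodes of OVX_E2_PBDE. Tnfsf11, the paracrine factor RANKL that progesterone is known to induce, was also at 0 in all members, which allows up to 0.651 to 1.37 CPM. Of the summed level of the 4 selecting genes, which the rule itself shapes, the hormone-sensing pair made up a median of 46.3% in the members of OVX and 43.2% to 51.9% in the other libraries, and 83.9% to 93.6% of members lay between 25% and 75%.

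A gene was then called outside both luminal types where its level in the members was at least 2 times that of the higher reference or at most 0.5 times that of the lower one, with 1 UMI added to each sum and at least 50 UMIs behind the test. In OVX, 2 of 4584 genes (0.0436%) lay above both references and 1 of 3920 (0.0255%) below. In OVX_E2 it was 1 of 5312 above (0.0188%) and 1 of 4577 below (0.0218%), and in OVX_E2_PBDE 1 of 6391 above (0.0156%) and 3 of 5512 below (0.0544%). In OVX_E2_P4 it was 1 of 5222 above (0.0191%) and 0 of 4412 below (0%). In OVX_E2_P4_PBDE it was 1 of 4281 above (0.0234%) and 0 of 3696 below (0%). No gene lay above both references in more than 1 library. With references below 3 UMIs per 10000 of the other program, 9 genes lay above and 23 below in OVX, where 24 L-Alv-only barcodes were left, and 0 to 2 lay outside in the libraries with E2. Where the counting intervals themselves had to be past the fold, 0 genes were outside in OVX. Each of the 11 calls was lost in at least 1 of the settings tried, and 10 of them with a limit of 20 for each program, where their UMIs fell below 50. Of the tested genes of the luminal, junction, milk fat and cell cycle lists, none was outside in any library. In the test above, only 2 to 4 of 18 cell cycle and 5 to 7 of 10 milk fat genes had enough UMIs. At the low shares over all genes, lists this short would seldom hold a call, so this is no result about them. With 1 library per group these are descriptions and not tests.

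In OVX the genes above were Slpi and Uggt1. Slpi, a secreted protease inhibitor on chromosome 2 (164354070 to 164389095, GRCm38), stood at 75.4 CPM in the members (64.4 to 87.9), against 19.2 in L-Hor-only (13.0 to 27.5) and 21.2 in L-Alv-only barcodes (11.6 to 35.6). Only 22 of the 88 members held a Slpi UMI, and the 3 highest barcodes carried 58.8% of the 165 UMIs. Slpi stood at 56.7 and 25.8 in the members of OVX_E2 and OVX_E2_PBDE, and at 26.7 and 30.0 in those of OVX_E2_P4 and OVX_E2_P4_PBDE, below 2 times the higher reference in each. With a limit of 20 for each program, Slpi turned to 0.135 times the higher reference in OVX, from 3 UMIs. The call was also lost with all classes chosen after thinning, at 1.75 times, and with barcodes of 8000 to 25000 UMIs, at 1.91 times. Uggt1, which senses misfolded glycoproteins in the endoplasmic reticulum, stood at 24.2 in the members of OVX (18.2 to 31.7), against 11.5 and 6.07 in the references, and its interval overlapped the 6.84 to 18.2 of L-Hor-only barcodes narrowly. With all classes chosen after thinning, Uggt1 stood at 1.07 times the higher reference.

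Among the genes above both references in the libraries with E2, Nppc and Hamp were found in few members. Nppc, the precursor of C-type natriuretic peptide, stood at 19.3 CPM in OVX_E2 against 2.92 and 0.369, but 7 members held it and the 3 highest carried 88.3% of its 60 UMIs. Hamp, hepcidin, stood at 18.7 in OVX_E2_P4 against 6.06 and 1.59, from 7 members. Neither had a UMI in the members with a limit of 20 for each program, and Nppc fell below 50 UMIs with barcodes of 8000 to 25000 UMIs. Apod, the lipid carrier apolipoprotein D, stood at 160 in OVX_E2_P4_PBDE against 28.7 and 56.6. It was found in 57 of 149 members, and the 3 highest carried 54.0% of its 389 UMIs. With references below 3 UMIs per 10000 of the other program its call was lost, at 1.82 times the higher reference, and with barcodes of 8000 to 25000 UMIs it stood at 6.13 times. Apod was at 220 in the fibroblast-program barcodes of that library. These 3 genes were not above both references in the remaining libraries.

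S100g, the calcium-binding protein calbindin-D9k, was the gene outside in opposite directions. In OVX it stood at 43.4 CPM in the members (35.1 to 53.1), below the 113 of L-Hor-only and the 95.5 of L-Alv-only barcodes. In OVX_E2_PBDE it stood at 27.4 (22.8 to 32.6), above the 6.64 and 11.7 of the references. The members of OVX_E2, OVX_E2_P4 and OVX_E2_P4_PBDE held it at 1.61, 12.1 and 37.5. It came from 19 members in OVX and 12 in OVX_E2_PBDE. In OVX it stood at 3.10 times the lower reference with references below 3 UMIs per 10000 of the other program, and so was no longer below both. In OVX_E2_PBDE it fell short of the fold with a limit of 20 for each program (1.85 times the higher reference), after thinning (1.82) and with the L-Alv-only barcodes of all libraries as the reference (1.66).

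Among the other genes below both references were contractile and immune genes. In OVX_E2_PBDE, Acta2 and Myl9, which are genes of basal and smooth muscle cells, stood at 16.1 and 3.69 CPM in the members, against 37.9 and 14.6 in L-Hor-only and 103 and 30.3 in L-Alv-only barcodes. The basal list of 9 genes summed to 52.5 in the members of that library, with Tagln as its most abundant gene and none of the 9 at 0. It summed to 93.4 in L-Hor-only and 262 in L-Alv-only barcodes. In OVX the order was the opposite, with 125 in the members, led by Acta2 at 47.6, against 62.2 and 77.3. In OVX_E2, OVX_E2_P4 and OVX_E2_P4_PBDE the members, at 68.6, 81.3 and 180, lay between the references. Csf3, a granulocyte growth factor, stood in OVX_E2_PBDE at 11.3 against 23.3 and 74.8. With all classes chosen after thinning, Acta2 and Csf3 were short of the fold, at 0.763 and 0.935 times the lower reference. In OVX_E2, Ccl5, a chemokine of T cells, stood at 6.77 against 24.6 and 33.2. The part of other cells in these 4 values was not tested.

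A weighted sum of both reference profiles, fitted by non-negative least squares over 7054 to 10442 genes, was compared with the members' levels. Each reference alone is a special case of this sum and the weights were fitted to the members, so a better fit of the sum is partly fixed by its construction. In OVX the correlation across genes of log2 levels, with 10 CPM added, was 0.987 with the sum, 0.977 with L-Hor-only and 0.966 with L-Alv-only barcodes. In the libraries with E2 it was 0.993 to 0.995 with the sum. Genes are not independent replicates and the values carry no p. In OVX 98.9% of genes lay within 1.5-fold of the sum, beside 95.2% for L-Hor-only and 89.0% for L-Alv-only barcodes. In the other libraries 99.7% to 99.9% did, beside 94.2% to 97.8% and 94.4% to 95.3% for the references. The L-Hor-only profile had 52.1% of the weight in OVX. It had 44.5% and 52.5% in OVX_E2 and OVX_E2_PBDE, and 42.5% and 56.4% in OVX_E2_P4 and OVX_E2_P4_PBDE. Its share of the summed median depths was 48.0%, 41.3%, 43.0%, 46.1% and 38.9% in the same order. The weights were thus near even in every library. Among genes at least 4-fold apart between the references and at 50 CPM or more in one of them, 36 of 38 lay between the references in OVX, 72 of 73 in OVX_E2, 94 of 94 in OVX_E2_PBDE, 179 of 179 in OVX_E2_P4 and 29 of 30 in OVX_E2_P4_PBDE.

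The genes common to both luminal lineages stood at the level of the references. A list of 10 (Epcam, Krt8, Krt18, Gata3 and others) summed to 11620 CPM in the members of OVX, against 11081 and 14022. Of 14 junction genes, with Cldn4 the most abundant, the sum was 1960 against 1979 and 1988. The immediate early and stress list of 13 genes, known to respond to tissue dissociation, summed to 8535 in the members of OVX, against 9777 and 9039. There the members lay below both references. In OVX_E2, OVX_E2_PBDE and OVX_E2_P4_PBDE they lay above both, at 8070 against 7340 and 6580, at 8218 against 7313 and 6321, and at 7931 against 7004 and 5555. In OVX_E2_P4 they lay between, at 7512. The 9 cell cycle inhibitors and D cyclins summed to 497 in OVX and 480 to 570 in the others, with Cdkn1a the most abundant.

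Genes listed for other cell types were mostly low in the members but not evenly so. The fibroblast list of 9 genes summed to 704 CPM in the members of OVX and to 301, 350, 271 and 485 in those of OVX_E2, OVX_E2_PBDE, OVX_E2_P4 and OVX_E2_P4_PBDE. In OVX its most abundant gene was Pi16, at 171, and none of the 9 was at 0. The references of OVX held the list at 757 and 675 and the fibroblast-program barcodes at 13981. Members and references of OVX thus carried fibroblast RNA alike, all of them under the rule's limit on collagen and decorin genes. The hematopoietic list of 12 genes summed to 171 in the members of OVX, led by Cd74 with Cd79a at 0, between the 444 of its L-Hor-only and the 129 of its L-Alv-only barcodes. It summed to 55.4, 57.3, 73.3 and 151 in the members of the other libraries. The 8 endothelial genes summed to 10.5 to 18.7, and 1 to 3 of them were at 0. The 6 pericyte genes summed to 37.4 to 43.9, nearly all Notch3. Of 4 adipocyte genes, Adipoq, Cidec and Lep were at 0 in the members of every library. The 4 Schwann cell genes summed to 71.4 to 99.7 in the members, led by Sox10. They summed to 88.0 to 105 in L-Alv-only, 47.6 to 70.6 in L-Hor-only and 18.7 to 30.0 in fibroblast-program barcodes. The list was thus highest in the luminal classes and is no measure of Schwann cells here.

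The members of OVX were then compared with those of the 4 libraries with E2. A gene was called where OVX stood at 2 times the highest of the 4 or more, or at 0.5 times the lowest or less, with 1 UMI added and at least 50 UMIs over the 5 libraries. Of 10060 genes, 122 (1.21%) were higher in OVX and 53 (0.527%) were lower. A limit of 20 for each program gave 23 and 13, a fold of 1.5 gave 628 and 151, a fold of 3 gave 24 and 20, and from 20 UMIs on 178 were higher and 99 lower. In L-Hor-only barcodes the same rule gave 444 of 11644 higher (3.81%) and 121 lower (1.04%). Of the 122 and 53 genes, 61 and 22 were also past the fold in L-Hor-only barcodes and 46 and 16 in L-Alv-only barcodes. In L-Hor-only barcodes OVX also stood above all 4 libraries for 122 of the 122 and below all 4 for 43 of the 53. The share over all genes tested is not given for these directions or for L-Alv-only barcodes. These counts are therefore descriptions and not a result about the genes called. Over all genes tested, the level in OVX stood 0.22 above the median of the 4 on the log2 scale.

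In the fibroblast-program barcodes of OVX, 74 of the 122 genes higher in OVX stood above their level in the members (60.7%). Over all 10060 genes tested, 3730 did (37.1%). Gsn, gelsolin, which severs actin filaments, stood at 2123 CPM in the members of OVX and at 419, 494, 414 and 557 in those of OVX_E2, OVX_E2_PBDE, OVX_E2_P4 and OVX_E2_P4_PBDE, but at 31448 in the fibroblast-program barcodes of OVX. Inmt, an N-methyltransferase, stood at 27.0 in the members of OVX (20.5 to 34.8) and at 2.26 to 4.12 in the others, beside 276 in those fibroblast barcodes. Inmt was no longer past the fold with a limit of 20 for each program, at 1.39 times the highest library with E2, from 6 UMIs. Of 21 genes (the 10 highest ratios, the 10 lowest and Areg), 16 were lost in that setting, 12 of them because they fell below 50 UMIs, and Upk3a, Gsn, Areg, Dgki and Ggt1 stayed past the fold. Igfbp3, which binds insulin-like growth factors, stood at 22.9 against 2.54 to 4.12, beside 355. Tgfbi, Fgl2 and Slc10a6, an extracellular matrix protein, a fibrinogen-like protein and a steroid sulfate transporter, likewise stood at 12.8, 96.0 and 11.9 in the members of OVX and at 153, 1440 and 102 in its fibroblast barcodes. The fibroblast share of the library and the fibroblast list moved with these genes, and their part in the values was not tested.

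With genes kept only where fibroblast-program barcodes stood below the members in every library, an alternative chosen after the data were seen, 28 genes were higher and 34 lower. Upk3a, a uroplakin of the urothelial surface, was the most abundant of those named. It stood at 779 CPM in the members of OVX (742 to 817), against 108 in OVX_E2 (97.0 to 120), 163 in OVX_E2_PBDE, 202 in OVX_E2_P4 and 76.1 in OVX_E2_P4_PBDE. It was found in 80 of the 88 members, at 3.86 times the highest library with E2 (2.01 times with a limit of 20 for each program), and stood at 1338 in L-Hor-only, 241 in L-Alv-only and 9.45 in fibroblast-program barcodes of OVX. Sv2c, a synaptic vesicle glycoprotein, stood at 34.3 against 4.51 to 7.94, in 44 members. Gm26870 stood at 26.5 against 4.34 to 6.35. Gm13242, which was not kept under that alternative, stood at 20.6 against 0.644, 4.12, 0 and 1.23 and was at 0 in the fibroblast-program barcodes of OVX. Upk3a, Sv2c, Gm26870 and Gm13242 were also past the fold in L-Hor-only barcodes, at 2.79, 3.61, 2.99 and 5.02 times the highest library with E2.

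Of the 53 genes lower in the members of OVX, 18 stood higher in its fibroblast-program barcodes than in its members (34.0%), a share near the 37.1% over all genes tested. Areg, amphiregulin, an epidermal growth factor receptor ligand known to be induced by estrogen, stood at 156 CPM in OVX (140 to 174), against 759 in OVX_E2 (728 to 790), 815 in OVX_E2_PBDE (789 to 841), 551 in OVX_E2_P4 (525 to 577) and 678 in OVX_E2_P4_PBDE (645 to 711). The level in OVX was 0.285 times the lowest of the 4, and 0.213 times in L-Hor-only barcodes. Areg is on chromosome 5 (91139599 to 91148432, GRCm38). After thinning, 23.9% of the members of OVX had an Areg UMI, against 54.5% to 67.9% in the others and 0.880% of the fibroblast-program barcodes of OVX (59.1%, 80.5% to 92.6% and 1.76% before thinning). Of 9 steroid response genes tested, 2 were lower and 0 higher, beside 53 of 10060 (0.527%) lower over all genes tested. These 2 were Areg and Pcp4, a calmodulin-binding protein. The list was chosen with earlier results of these data known, so its count cannot be read as an excess over all genes. The interval of Pcp4 in OVX was 11.1 to 22.3, against levels of 298, 36.3, 61.9 and 223.

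Slc5a5, the sodium iodide symporter, stood at 23.3 CPM in the members of OVX (17.4 to 30.7), against 158, 126, 92.4 and 137 in those of OVX_E2, OVX_E2_PBDE, OVX_E2_P4 and OVX_E2_P4_PBDE. With a limit of 20 for each program its ratio was 0.573, short of the fold. Ido1, which degrades tryptophan, stood at 13.7 against 67.3, 62.1, 51.4 and 77.4. Dgki, a diacylglycerol kinase, stood at 5.49 against 30.5 to 54.9, Ggt1, which cleaves glutathione, at 4.57 against 22.9 to 36.4, and Gm26802 at 4.57 against 29.2 to 45.6. The values of these 5 genes in OVX did not overlap those of the other 4 libraries within counting error. In L-Hor-only barcodes Slc5a5, Ido1, Dgki and Ggt1 stood at 0.359, 0.344, 0.174 and 0.250 times the lowest library with E2, past the fold as in the members. Gm26802 stood at 0.506 times, just short of it.

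Dmbt1, a mucosal scavenger protein, stood at 4.57 in the members of OVX against 24.7 to 44.5 in the others, and 3 members held all of its 10 UMIs. With a limit of 20 for each program Dmbt1 was no longer below the range, at 3.96 times the lowest library with E2, from 9 UMIs in OVX. In L-Hor-only barcodes of OVX it was at 0, which allows up to 1.92 CPM. Upk2, another uroplakin, stood at 4.12 against 18.7 to 29.2, opposite in direction to Upk3a. Arhgdig, Lockd and Gm1673 rested on 1, 2 and 2 UMIs in OVX. Of the hormone-sensing list, 9 genes were tested, and Tbx3 was higher and Areg lower. Of 11 alveolar, 10 shared luminal, 14 junction and 13 stress genes tested, none was past the fold. Of 9 milk fat genes, Lpl, lipoprotein lipase, was higher, at 79.1 against 18.2 to 27.6. Lpl stood at 84.7 in L-Hor-only, 75.8 in L-Alv-only and 1787 in fibroblast-program barcodes of OVX, and the part of fibroblast RNA was not tested. Of 11 cell cycle genes, Stmn1, a microtubule regulator, was lower, and of 9 fibroblast genes, Fbln1 and Serpinf1 were higher. None of the tested basal, endothelial, pericyte, hematopoietic, Schwann cell or cell cycle inhibitor genes was past the fold. Over all 10060 genes tested, 1.21% were higher and 0.527% lower.

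**Figure D5:**
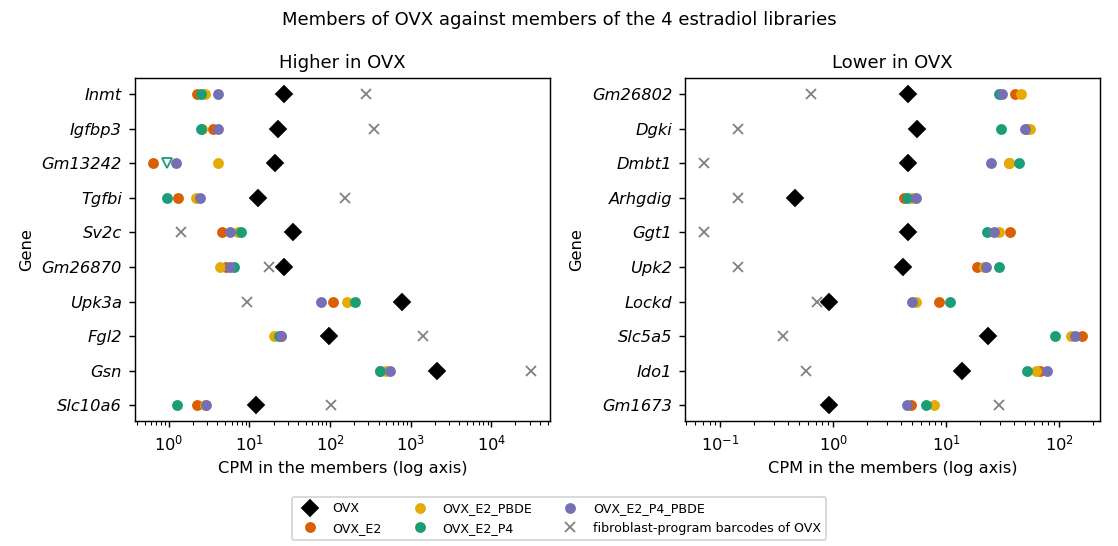
CPM on log axes in the members of each library for the 10 genes with the highest and the 10 with the lowest ratio of OVX to the nearest library with estradiol. Diamonds are OVX, circles the other libraries, the open triangle the limit that 0 UMIs allow, and crosses the fibroblast-program barcodes of OVX (Gm13242 is at 0 there). Upk3a stands at 779 in OVX against 76.1 to 202, and Slc5a5 at 23.3 against 92.4 to 158.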

How the data were processed

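Single-cell 3′ libraries were processed by the submitters with Cell Ranger 2.0.0 on mm10, per the submitters' processing notes. The authors deposited raw UMI counts per gene and barcode. The counts were used as deposited, over 27998 genes, and no barcode was added or removed beyond the limits given. The members and gene lists were chosen with earlier results of these data known. Counts were summed per library and class and divided by the class total to give CPM (UMIs per 1000000). As there was 1 library per group, no test between groups was made and no p-value was computed. Thinning drew 3000 UMIs per barcode without replacement (seed 1). Genes named were the genes outside both references, the 10 largest and 10 smallest ratios of OVX to the nearest library with estradiol, and examples from each list, with the 15 genes of the rule left out of the calls. Other genes named were chosen after their values were seen. The calls of genes outside both references were tried on simulated sums, where the recovery of raised genes was checked. Recovery of lowered genes was not checked. The comparison with the range of the libraries with estradiol, the weighted fit and the ratios were not simulated. Gene positions came from GENCODE vM21 (GRCm38, the same assembly as mm10). Python 3.11.15, numpy 2.4.6, scipy 1.17.1 and pandas 2.3.3 were used.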

Additional observations from a re-analysis of the deposited data

Results flagged for a closer look

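Cycling barcodes holding both luminal programs were left out by the rule and lie outside the comparisons above. Without P4, OVX_E2 had 16 and OVX_E2_PBDE had 11. With P4, OVX_E2_P4 had 14 and OVX_E2_P4_PBDE had 6. OVX had 1. They were 16.2% of the 99 cycling luminal barcodes of OVX_E2 (exact binomial 95% interval 9.53 to 24.9), 20.4% of 54 in OVX_E2_PBDE, 13.3% of 105 in OVX_E2_P4 and 16.7% of 36 in OVX_E2_P4_PBDE. OVX had 3 cycling luminal barcodes in all. The median depth of these barcodes was 38554, 41877, 27615 and 24745 UMIs in the 4 libraries with E2, above that of the members.

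The share of members among all barcodes moved in opposite directions with PBDEs. With PBDEs beside E2 alone it changed by -0.345 percentage points, and beside E2 and P4 it was 1.36 points higher. Against luminal barcodes both shares were higher with PBDEs, at 14.3% against 12.3% and 13.3% against 9.78%, and with a limit of 20 for each program both were higher as well. The opposite directions thus held for the share of all barcodes at the limit of 10, and not in either of these settings. This difference was not tested, as each group has 1 library, and the intervals of each pair of shares of all barcodes overlapped.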

How the results depend on the processing

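Each choice was changed one at a time. Of 116 repeats of the shares, ratios and gene counts, 50 stayed within the interval or within 1.5 times the main count and 66 moved, among them depth ratios that crossed 1. In what follows the order is OVX, OVX_E2, OVX_E2_PBDE, OVX_E2_P4, OVX_E2_P4_PBDE. With a limit of 20 for each program, the share was 0.450%, 0.224%, 0.622%, 0.386% and 1.27%, and the depth ratio moved to 0.865, 0.884, 0.618 and 0.752 in all but OVX_E2_P4, which took OVX from above 1 to below it. Genes outside both types were then 5 in OVX_E2, 1 in OVX_E2_PBDE and 0 in OVX_E2_P4, and 23 genes were higher and 13 lower in OVX. That setting also took Slpi in OVX to 0.135 times the higher reference, from 3 UMIs. Dmbt1 in OVX was then at 3.96 times the lowest library with E2, and so no longer below the range. Of the 11 genes outside both types 10 were lost there, all below 50 UMIs, and of 21 genes of OVX against the range (the 10 highest and 10 lowest ratios and Areg) 16 were lost, 12 of them below 50 UMIs. Against luminal barcodes the shares were 34.6%, 12.3%, 14.3%, 9.78% and 13.3%. With luminal barcodes in place of all, chosen after seeing the data, the members against both class numbers stood at 4.11, 1.06, 1.11, 0.493 and 1.27. Chosen after thinning, the share was 5.89% in OVX_E2_P4 and 7.63% in OVX_E2_P4_PBDE, the depth ratio of OVX was 1.07, 2 genes lay outside in OVX_E2_PBDE and 2 in OVX_E2_P4, and the calls of Slpi (1.75) and, in OVX_E2_PBDE, S100g (1.82) were lost. With mitochondrial UMIs at most 5%, 5 genes lay outside in OVX and 2 in OVX_E2_P4.

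With references below 3 UMIs per 10000 of the other program, the depth ratios were 2.01, 1.21, 1.07, 1.02 and 1.09, so that the libraries with E2 went from below 1 to above it, and the call of Apod was lost (1.82). Genes outside were then 32 in OVX, 1 in OVX_E2_PBDE and 0 in OVX_E2_P4_PBDE. The L-Alv-only reference of OVX then held 24 barcodes. A fold of 1.5 gave 49, 6, 20, 10 and 11 genes outside, and 628 higher and 151 lower in OVX. A fold of 3 gave 1 in OVX, 1 in OVX_E2_PBDE and 0 in OVX_E2_P4_PBDE, and 24 higher and 20 lower. From 20 UMIs on, 25, 12, 12, 9 and 10 genes lay outside and 99 were lower in OVX. Between 8000 and 25000 UMIs per barcode, 0 lay outside in OVX_E2, 2 in OVX_E2_PBDE and 5 in OVX_E2_P4_PBDE. There 7 of the 11 genes outside both types fell below 50 UMIs, among them Slpi (1.91) and Nppc (11.3), and S100g in OVX_E2_PBDE and Apod stood at 3.74 and 6.13 times the higher reference. Intervals past the fold left 0 in OVX, 1 in OVX_E2_PBDE and 0 in OVX_E2_P4, and L-Alv-only barcodes of all libraries gave 2 in OVX_E2_P4_PBDE and left S100g in OVX_E2_PBDE at 1.66. Without genes higher in fibroblasts, 28 were higher and 34 lower in OVX, an alternative chosen after seeing the data. For moved values whose setting does not itself change the number of genes or barcodes, the cause was not tested. No paired analysis was possible because each group has 1 library.

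The counts outside both types are small, so 1 gene moves them. The lowest levels rest on few UMIs, and genes below 50 UMIs were compared only in the setting from 20 UMIs on.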
